A study of Mus musculus with 8 samples.

Results

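The genes described here are 39 mouse genes whose products cut, protect or crosslink the extracellular matrix: 16 matrix metalloproteinases (MMPs), 14 ADAMTS proteases, 4 tissue inhibitors of metalloproteinases (TIMPs) and 5 lysyl oxidases. The rule that picks them uses their names and families, not their values, although it was set with earlier results of these data known. They are 39 of the 22872 genes with a named probe on the array. Adherent cells grown from abdominal subcutaneous fat, which the labels call adipose-derived mesenchymal stem cells, were measured in 4 groups of male C57BL/6 mice that started at 6 weeks of age. HF12 mice ate a high-fat diet (60% fat) over 12 weeks and C12 mice ate control chow over the same time; HF24 and C24 mice ate these diets over 24 weeks. Each group has 2 arrays. The fat was digested with collagenase, red cells were lysed, and the adherent cells were passaged a few times before RNA was taken, so all values are those of cells in culture. The labels do not say whether the 2 arrays of a group came from separate mice or cultures, and p-values then measure only the spread between these arrays. The 24-week groups had both more weeks of feeding and a higher age, and these cannot be told apart.

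Extracellular matrix is kept in balance by secreted and membrane-bound metalloproteinases, which need zinc, and by TIMPs, which block them. Collagenases cut intact fibrillar collagen, gelatinases cut unwound collagen and basement membrane, stromelysins have broad substrates, and ADAMTS proteases cut proteoglycans such as aggrecan and versican or trim procollagen. Lysyl oxidases work in the other direction: they oxidise lysines so that collagen and elastin fibres are crosslinked. In adipose tissue, stromal cells and macrophages are the main sources of these enzymes, and the matrix is remodelled as fat expands.

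Values are scaled intensities: the processed fluorescence of 1 probe per gene, brought to the same 75th percentile of 948 on every array. An intensity depends on the probe as well as on the RNA, so levels are set beside each other only for the same gene. A gene was called higher or lower when the adjusted p of limma's moderated test, over 29576 genes and unnamed features, was below 0.05. Of the 39 genes, 37 passed the filter on dim probes; Adamts3 and Mmp24 were not well above background on any array. Adamts20 and Timp4 passed only through the 12-week groups and Mmp16 through HF12 and C12, so a lower value of theirs at 24 weeks is no independent result. All other genes that passed were well above background on both arrays of at least 3 groups.

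The cultures were not of 1 cell type by their markers, which touches every comparison below. All 11 measured genes of the mesenchymal stromal list were above background on some array, with summed scaled intensities of 594615 to 618886 in HF12, 758445 to 790166 in C12, 591331 to 627525 in HF24 and 678348 to 682112 in C24. Macrophage markers summed to 331910 to 332733 in HF12 and 61938 to 63085 in C12, and to 264911 to 269876 in HF24 and 131816 to 138091 in C24. Of the 13 macrophage markers, 12 were called higher in HF12 than in C12, and 11 higher and 1 lower in HF24 than in C24. Of all features tested, 13.6% were called higher and 17.4% lower in HF12 than in C12. In HF24 over C24 these shares were 15.1% and 19.0%, and all marker counts by diet in this paragraph are to be read against them. Adipocyte markers summed to 113949 to 119414 in HF12 and 746805 to 758960 in C12, and were between 44486 and 50008 in both 24-week groups. Within those 24-week sums, 5 of 7 adipocyte markers were called lower in HF24 than in C24 and none higher. Neutrophil markers summed to 78648 to 82974 in HF12, 90401 to 93467 in C12, 60723 to 64835 in HF24 and 82736 to 88122 in C24, with Ngp and Cxcr2 at background throughout. The brightest probes carry such a sum: 5 of the 7 tested neutrophil markers were called higher and 1 lower in HF24 than in C24, and 3 higher and 1 lower in HF12 than in C12. Skeletal muscle markers summed to 101876 to 105788 in HF12 and 134254 to 142281 in C12, and to 20317 to 20851 in HF24 and 52900 to 53482 in C24. All 6 were called lower in C24 than in C12 and in HF24 than in HF12, against 22.2% and 24.4% of all features. Endothelial markers summed to 30015 to 30739 in HF24 and 11217 to 11251 in HF12, and to 20421 to 21319 in C24 and 12026 to 12098 in C12. Mast cell markers summed to 23700 to 25006 in HF24 and 3034 to 3086 in HF12, and to 19192 to 21414 in C24 and 3598 to 3938 in C12. In such a mixture, fewer cells of a type and less RNA per cell cannot be told apart. All arrays lay on 1 slide; the 12-week arrays filled 1 row and the 24-week arrays the other, and each diet filled its own columns, so position on the slide and the groups cannot be told apart. Correlations between arrays of the same group were 0.995 to 0.998, and those between groups 0.955 to 0.985.

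By diet, most called genes were lower in HF12 than in C12, and only Mmp12 and Mmp9 were called more than 2-fold higher. At 12 weeks 21 of the 37 tested genes were called, 6 higher and 15 lower in HF12 than in C12, where 31.0% of all features tested were called, 13.6% higher and 17.4% lower. At 24 weeks 14 were called, 5 higher and 9 lower in HF24 than in C24, against 34.1% of all features, 15.1% higher and 19.0% lower, so the share of 37.8% there was near the background. With time, 25 genes were called on chow, 13 higher and 12 lower in C24 than in C12, against 46.1% of all features, 23.9% higher and 22.2% lower; the 12 include Adamts20 and Timp4. Among high-fat cells, 23 were called, 13 higher and 10 lower in HF24 than in HF12, against 46.8%, 22.5% higher and 24.4% lower; the 10 include Adamts20. The diet change itself differed between the feeding times, by the interaction of diet and time, for 15 genes, 9 with a positive and 6 with a negative difference, against 29.9% of all features, 13.9% positive and 16.0% negative. The median log2 change of the 37 genes was -0.25 in HF12 over C12, where that of all features was -0.033, and the median size of change was 0.39 against 0.21. In HF24 over C24 the medians were -0.048 and 0.021, in C24 over C12 0.028 and 0.016, and in HF24 over HF12 0.11 and -0.012, for the 37 genes and all features in that order. These counts describe the genes and do not test the family as a set. Only Mmp12, Mmp13, Adamts1, Adamts14, Mmp3 and Adamts20, the last below background in both 24-week groups, were called in the same direction by diet at both times. Timp3, Loxl1 and Mmp10 were called in opposite directions, and 11 were called at neither time. Of the genes called at both times, only Mmp12, Mmp13 and Adamts1 kept both calls in every setting. The matching shares of all features were not counted, so these tallies only describe the genes.

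**Figure D1:**
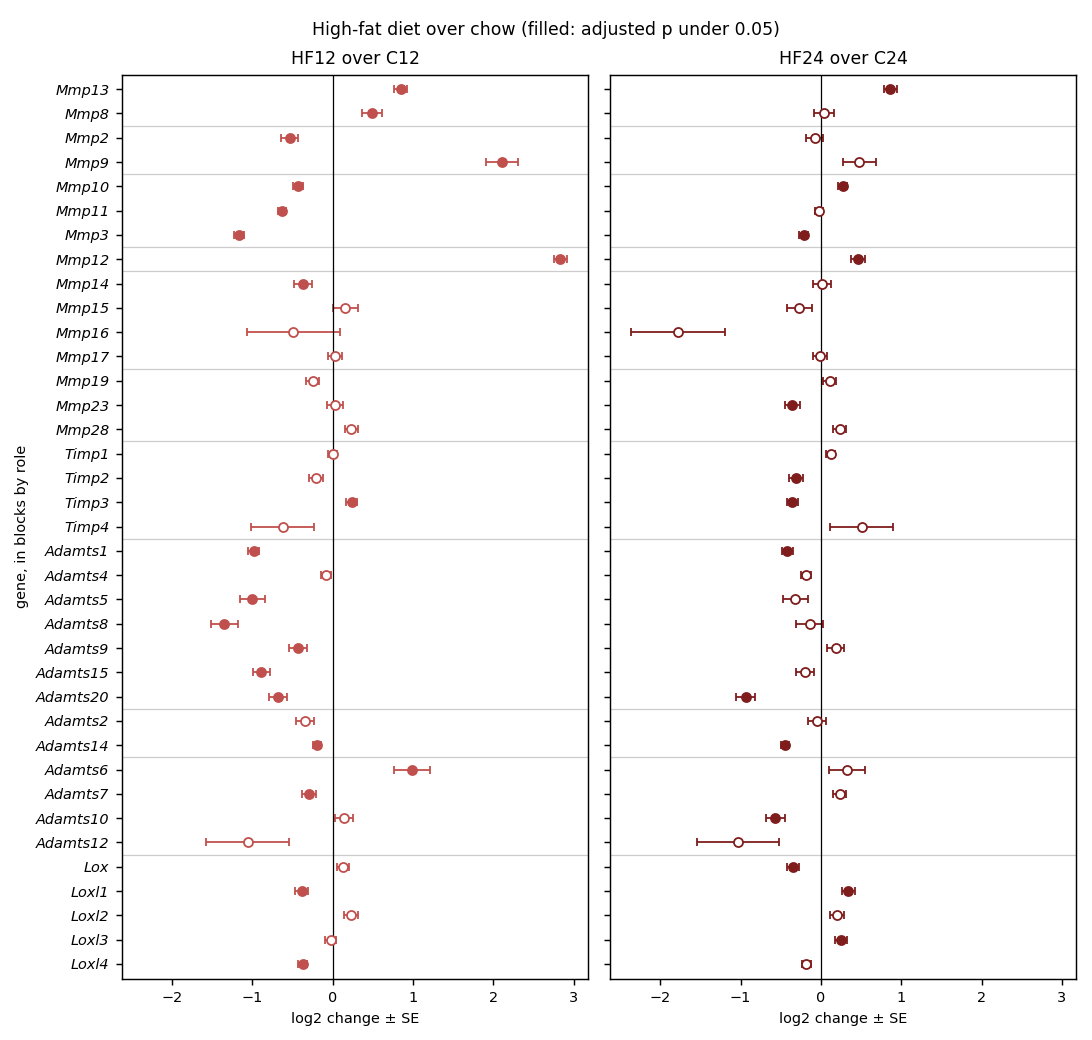
The log2 change ± SE of each of the 37 tested genes is plotted for HF12 over C12 (left) and HF24 over C24 (right), in blocks by role; filled points have an adjusted p under 0.05. Most filled points on the left lie below 0, with Mmp12 and Mmp9 far above it, and the filled points on the right lie between -0.57 and 0.86, apart from Adamts20, which was below background in both 24-week groups.

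The largest change by diet among the 37 genes was in Mmp12, which encodes macrophage elastase, a metalloproteinase that cuts elastin and is best known from macrophages. Mmp12 had scaled intensities of 37827 and 40359 in HF12, against 5816 and 5159.6 in C12. It had 15083 and 14903 in HF24, against 11319 and 10480.2 in C24. The HF12 arrays were the highest of the 8 and the C12 arrays the lowest, with no overlap between groups at either time. Mmp12 was 7.13-fold higher in HF12 than in C12, a log2 change of 2.83 (SE 0.082, adjusted p = 5.36e-06), and 1.38-fold higher in HF24 than in C24, a log2 change of 0.46 (SE 0.082, adjusted p = 0.00812). The diet change was smaller at 24 weeks, with an interaction of -2.37 (SE 0.12, adjusted p = 0.000103). Time moved it in opposite directions on the 2 diets: it rose by 0.99 on the log2 scale on chow (C24 over C12) and fell by 1.38 on the high-fat diet (HF24 over HF12). All 3 kept Mmp12 probes gave the same calls in all 5 comparisons.

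Mmp9, gelatinase B, a secreted gelatinase made by macrophages and neutrophils, was also higher in HF12 than in C12. Its scaled intensities were 108 and 100.4 in HF12, against 29.2 and 20.0 in C12, where only 1 of the 2 C12 arrays was well above background. They were 259 and 241 in HF24, against 158 and 203 in C24. Every C12 value lay below all other groups. Mmp9 was higher in HF12 than in C12 with a log2 change of 2.11 (SE 0.20, adjusted p = 0.000765), whereas HF24 over C24 had a log2 change of 0.48 (SE 0.20, adjusted p = 0.122) and was not called. On chow it rose with time by 2.89 (SE 0.20), the largest log2 rise with time among the 37 genes on either diet, and on the high-fat diet by 1.26 (SE 0.20). The interaction was -1.63 (adjusted p = 0.00892), and that call was lost with normexp background correction and quantile normalization. Macrophage marker sums moved with Mmp12 and Mmp9 between HF12 and C12, as given above. All 13 macrophage markers had a called lower interaction, against 16.0% of all features, and their part in the results was not tested. Between HF24 and HF12 the 2 genes parted: Mmp12 fell and Mmp9 rose, while the macrophage sum was 264911 to 269876 in HF24 and 331910 to 332733 in HF12.

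The collagenases measured were Mmp13 and Mmp8. Mmp13, the main interstitial collagenase of rodents, had scaled intensities of 2397 and 2183 in HF12, against 1310.3 and 1237 in C12. The 24-week values were 2422 and 2250.0 in HF24, against 1238 and 1328 in C24. Both high-fat groups lay above both chow groups with no overlap, and the change was 1.80-fold at 12 weeks (log2 change 0.85, SE 0.080, adjusted p = 0.000703) and 1.82-fold at 24 weeks (log2 change 0.86, SE 0.080, adjusted p = 0.000758). The interaction was 0.019 (SE 0.11), adjusted p = 0.914, and neither time comparison was called, with log2 changes of 0.010 on chow and 0.030 on the high-fat diet. The macrophage marker sums were also higher in both high-fat groups than in their chow groups, by the values above; their part in this result was not tested. Mmp8, which is named for neutrophils but is also made by other cells, had 362 and 376 in HF12, against 281 and 244 in C12, a log2 change of 0.49 (SE 0.12, adjusted p = 0.0291) that lost its call without any 1 of the 4 12-week arrays (adjusted p 0.0514 to 0.122). Its values were 192 and 241 in HF24, against 209 and 209 in C24, which overlapped, and it was lower in HF24 than in HF12 (-0.78, SE 0.12, adjusted p = 0.00403).

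The stromelysins were all lower in HF12 than in C12, 3 of 3 genes, where 17.4% of all features were called lower. Mmp3, stromelysin 1, a stromal cell enzyme that also activates other pro-MMPs, had 40267 and 38751 in HF12, against 90421 and 87125 in C12, a log2 change of -1.17 (SE 0.057, adjusted p = 4.19e-05). It had 48476 and 50328 in HF24, against 57887 and 56676 in C24, and the smaller change of -0.21 (adjusted p = 0.033) lost its call without either HF12 array or any 1 of the 24-week arrays (adjusted p 0.0551 to 0.171). In HF24 its level was above that in HF12 by 0.32, and in C24 below that in C12 by 0.63, on the log2 scale. Mmp10, stromelysin 2, had 194 and 182 in HF12, against 251 and 256 in C12, and then 372 and 379 in HF24, against 305 and 319 in C24, so the order of the diets turned round. Its diet change was -0.43 at 12 weeks and 0.27 at 24 weeks, the second of which lost its call without C24 replicate 1, HF24 replicate 1 or HF24 replicate 2 (adjusted p 0.0763 to 0.0935). Mmp11, stromelysin 3, a fibroblast enzyme of tissue remodelling, had 24165 and 23987 in HF12, against 37138 and 37617 in C12, and 17851 and 17676 in HF24, against 17681 and 18383 in C24. Its level on the high-fat diet was lower at 12 weeks (log2 change -0.63, SE 0.052, adjusted p = 0.000395) and was not called at 24 weeks (-0.021, SE 0.052, adjusted p = 0.779). All 3 stromelysins had a called positive interaction, of 0.95 for Mmp3, 0.70 for Mmp10 and 0.61 for Mmp11, against 13.9% of all features called higher.

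Mmp13, Mmp12, Mmp3, Mmp10 and Mmp8 lie in this order along chromosome 9 in RefSeq's annotation, with only Mmp1b between Mmp12 and Mmp3 and Mmp1a between Mmp3 and Mmp10 among protein-coding genes. The members of this cluster did not all move one way: in HF12 over C12, Mmp13, Mmp12 and Mmp8 were called higher and Mmp3 and Mmp10 lower. A window of 300 bases around the start of a gene, 250 before and 50 after it, was available for 23 of the 39 genes in RefSeq's table for the build GRCm38.p6. The AP-1 motif TGANTCA, which reads the same on both strands and is bound by Fos and Jun family proteins, occurred in 4 of the 23 genes (17.4%), against 2425 of 27025 genes (8.97%) with a window. All 4 were members of the cluster; Mmp8 had no match in its window, and Mmp12 had one in 1 of its 2 windows. The 4 windows with a match are shown with the motif in capitals, as TGACTCA in Mmp13 and TGAGTCA in Mmp12, Mmp3 and Mmp10. Its first base is at -35, -44, -46 and -63 from the start site, in the order printed. Whether the motif has a part in the changes of these genes was not tested.
Mmp13 chr9:7272264-7272563 (+ strand, GRCm38.p6): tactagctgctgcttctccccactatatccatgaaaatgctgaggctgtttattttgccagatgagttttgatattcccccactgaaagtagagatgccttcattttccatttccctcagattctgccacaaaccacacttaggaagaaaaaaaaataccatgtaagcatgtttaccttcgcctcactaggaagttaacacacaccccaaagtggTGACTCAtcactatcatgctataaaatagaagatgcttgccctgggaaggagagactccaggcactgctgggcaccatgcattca
Mmp12 chr9:7347124-7347423 (+ strand, GRCm38.p6): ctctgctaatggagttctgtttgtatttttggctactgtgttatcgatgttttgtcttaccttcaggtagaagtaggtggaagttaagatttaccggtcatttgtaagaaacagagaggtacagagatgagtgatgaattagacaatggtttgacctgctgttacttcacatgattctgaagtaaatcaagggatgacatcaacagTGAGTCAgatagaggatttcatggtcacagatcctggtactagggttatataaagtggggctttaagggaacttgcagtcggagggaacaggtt
Mmp3 chr9:7445572-7445871 (+ strand, GRCm38.p6): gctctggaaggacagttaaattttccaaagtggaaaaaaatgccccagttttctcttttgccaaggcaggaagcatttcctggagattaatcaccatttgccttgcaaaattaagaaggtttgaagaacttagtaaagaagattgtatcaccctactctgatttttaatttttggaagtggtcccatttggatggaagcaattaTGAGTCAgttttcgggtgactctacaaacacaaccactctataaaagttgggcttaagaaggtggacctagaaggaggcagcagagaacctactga
Mmp10 chr9:7502092-7502391 (+ strand, GRCm38.p6): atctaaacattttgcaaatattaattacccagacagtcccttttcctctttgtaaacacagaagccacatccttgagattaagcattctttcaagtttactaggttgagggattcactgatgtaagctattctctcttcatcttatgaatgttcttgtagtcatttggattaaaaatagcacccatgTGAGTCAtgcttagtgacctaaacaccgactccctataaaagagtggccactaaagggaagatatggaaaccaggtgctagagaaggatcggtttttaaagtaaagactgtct

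A match of these letters is a description of the sequence and shows no binding. Among the genes of AP-1 subunits, 3 of 7 were called higher in HF12 than in C12 (13.6% of all features) and the other 4 were not called, while 1 was higher and 2 lower in HF24 than in C24 (15.1% and 19.0% of all features). Fos, a Jun partner induced early by growth signals, had 3498 and 3847 in HF12, against 1569.7 and 1399.8 in C12, a log2 change of 1.31 (SE 0.085, adjusted p = 0.000143). It had 2571 and 2648 in HF24, against 4181 and 3919.5 in C24, with a log2 change of -0.63. Fosl1 was 1.72 higher on the log2 scale in C24 than in C12 and 1.68 higher in HF24 than in HF12.

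**Figure D2:**
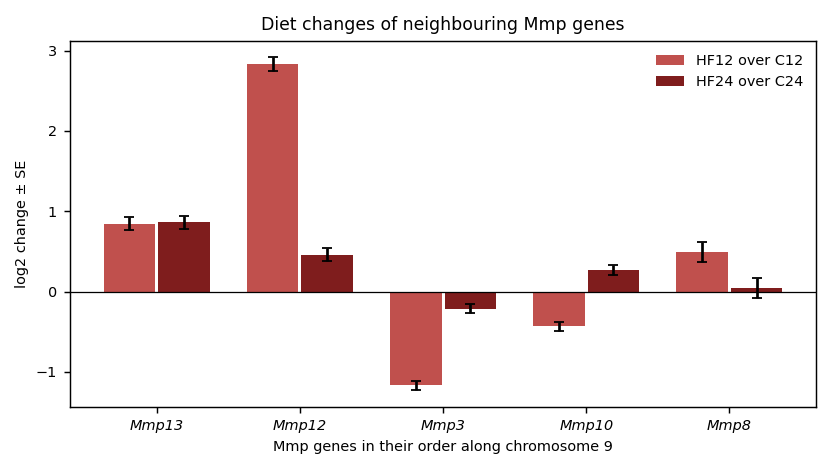
Bars give the log2 change ± SE of the 5 clustered Mmp genes in chromosome order, for HF12 over C12 (light) and HF24 over C24 (dark). Mmp13, Mmp12 and Mmp8 stand above 0 and Mmp3 and Mmp10 below it at 12 weeks; Mmp10 stands above 0 at 24 weeks.

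The ADAMTS proteoglycanases, which cut aggrecan, versican and related proteoglycans, were the role group with most genes lower in HF12: 6 of 7 were called lower and Adamts4 was not called, where 17.4% of all features were called lower. Adamts1, which cuts versican, had 9904 and 9032 in HF12, against 18998 and 18471 in C12, a log2 change of -0.99 (SE 0.070, adjusted p = 0.00021). It had 7165 and 7216 in HF24, against 9955 and 9282 in C24, a log2 change of -0.42 (SE 0.070, adjusted p = 0.00649). Adamts5, the major aggrecanase of mouse cartilage, had 865 and 743 in HF12, against 1557 and 1658 in C12, with a log2 change of -1.003 (SE 0.16). Adamts8 had 110.2 and 101 in HF12, against 286 and 255 in C12, a log2 change of -1.35 (SE 0.17, adjusted p = 0.00212). Adamts15 had 4071 and 4079.7 in HF12, against 6733 and 8474 in C12, with a log2 change of -0.89 (SE 0.11). The HF12 values of Adamts1, Adamts5, Adamts8 and Adamts15 were all below their C12 values with no overlap. Adamts9 was 0.43 lower on the log2 scale in HF12, a call lost without C12 replicate 1, C12 replicate 2 or HF12 replicate 1 (adjusted p 0.0529 to 0.145). Adamts20 was dim, with 23.3 and 27.5 in HF12, against 37.9 and 43.6 in C12, a change whose call was lost with an intensity trend in the variance, and was not well above background in HF24 or C24, where it was at least 1.44-fold lower in C24 than in C12. Adipocyte and stromal marker sums were also lower in HF12 than in C12, by the values above, and their part in these results was not tested. The remaining gene, Adamts4, the inducible aggrecanase 1, had 2343 and 2448 in HF12, against 2624 and 2442 in C12 and did not pass the test (-0.080, SE 0.062).

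Chow cells at 24 weeks also had lower levels of most of these proteoglycanases than chow cells at 12 weeks. In C24 over C12, leaving out Adamts20, which passed the filter only through the 12-week groups, 4 of 6 were called lower and 1 higher, against 22.2% and 23.9% of all features. Skeletal muscle and adipocyte marker sums were also lower in C24 than in C12, by the values above, and their part in this was not tested. The values were 2187 and 2237 in C24 for Adamts15, 631 and 511 in C24 for Adamts5 and 113 and 81.5 in C24 for Adamts8. Each of these lay far below the C12 values above, with log2 changes of -1.77 (SE 0.11), -1.50 (SE 0.16) and -1.49 (SE 0.17). Adamts4 instead rose with time on both diets, by 0.71 on chow and 0.60 on the high-fat diet, and had 3641 and 3635 in HF24, against 4229 and 4073 in C24. Adamts1 had a called interaction of 0.57 and Adamts8 one of 1.21; that of Adamts15, 0.69, lost its call without either HF12 array or any 1 of the 24-week arrays (adjusted p 0.0501 to 0.0673), and that of Adamts5 was not called (adjusted p = 0.0641). The other kept Adamts5 probe did have a called interaction, of 0.61 (adjusted p = 0.00554), and was called lower in HF24 than in C24 (-0.43, adjusted p = 0.00498), where the probe shown was not. Adamts1 and Adamts5 are neighbours on chromosome 16, and Adamts15 and Adamts8 on chromosome 9, with no protein-coding gene between the members of each pair. Dcn, decorin, a small proteoglycan, was lower in all 4 comparisons, with 193534 and 188468 in HF12, against 336349 and 322795 in C12 and a log2 change of -0.79 (SE 0.087). Vcan, versican, had log2 changes of -0.60 in HF12 over C12 and 0.55 in C24 over C12, both called.

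The other ADAMTS genes had calls in different comparisons. Of the procollagen N-propeptidases, which trim collagen precursors, Adamts14 had 2725 and 2808 in HF24, against 3821 and 3735 in C24, a log2 change of -0.45 (SE 0.052, adjusted p = 0.00165); its call at 12 weeks was lost without any 1 of the 8 arrays (adjusted p 0.0609 to 0.143). Adamts2 was not called in any comparison, and its HF12 over C12 log2 change was -0.35 (SE 0.11, adjusted p = 0.0658). Adamts6 had 106 and 92.4 in HF12, against 44.8 and 55.8 in C12, and 195 and 296 in HF24, against 176 and 211 in C24, and rose with time on chow by 1.94 (SE 0.23) and on the high-fat diet by 1.28 (SE 0.23). Its rise with diet at 12 weeks, 0.98 (SE 0.23), lost its call without C12 replicate 1, HF12 replicate 1 or HF12 replicate 2 (adjusted p 0.0676 to 0.114). Adamts10, which acts on fibrillin, had 297 and 312 in HF24, against 457 and 445 in C24, a log2 change of -0.57 (SE 0.11) that lost its call without C24 replicate 1 or HF24 replicate 1 (adjusted p up to 0.059). Adamts7, a protease of the matrix protein COMP, rose with time on the high-fat diet by 0.69 (SE 0.083). Adamts12 was not called in any comparison; 1 C24 array stood at 156 and the other at 48.0.

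**Figure D3:**
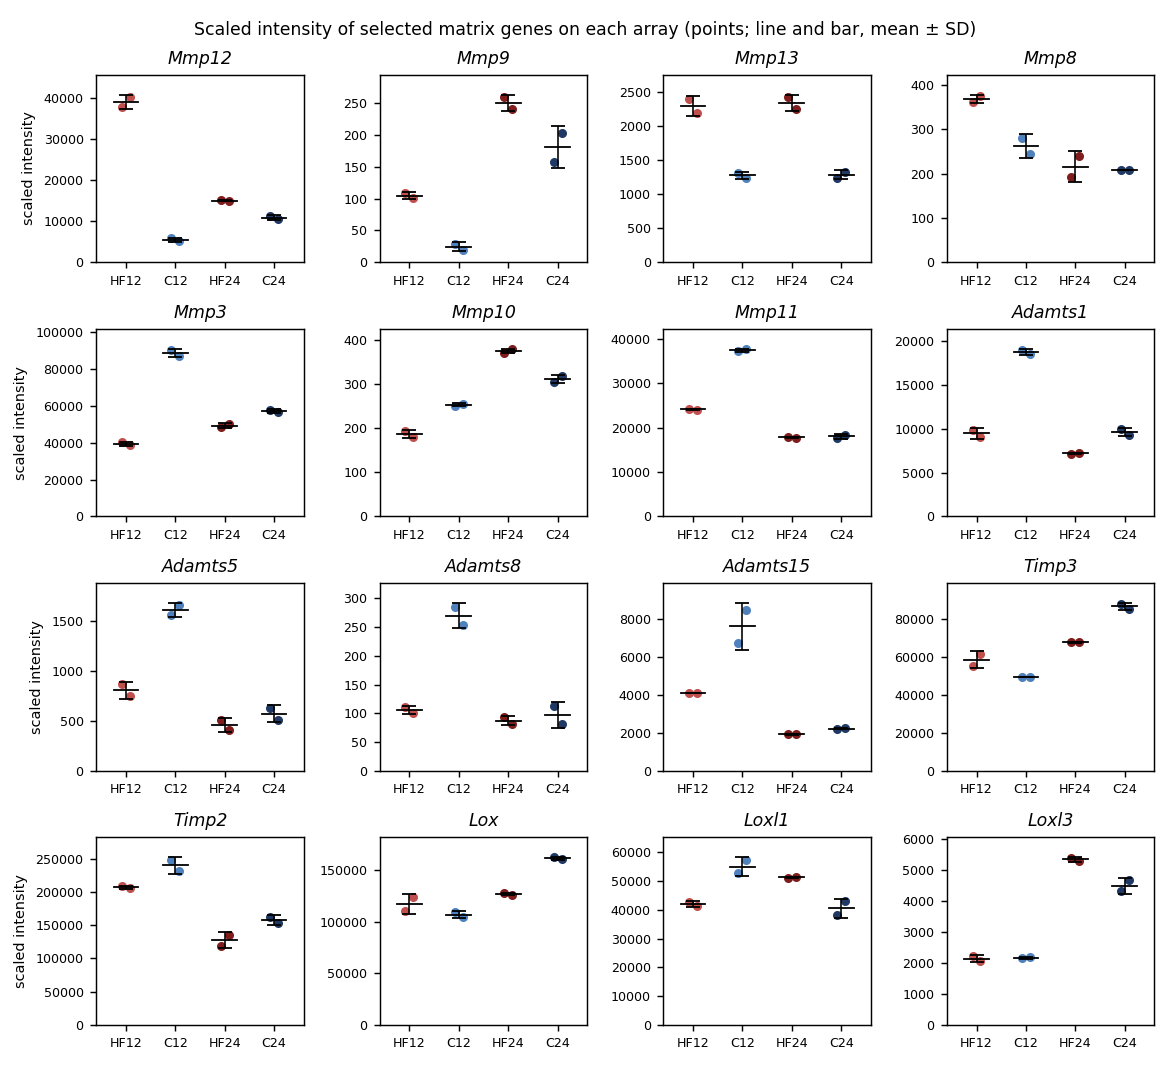
Points are scaled intensities of 16 genes on each of the 8 arrays, by group; the line and bar give the mean ± SD of 2 arrays, and each vertical axis starts at 0. Mmp12 is highest in HF12, Mmp13 is high in both high-fat groups, and Mmp3, Mmp11 and the Adamts genes are highest in C12.

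Of the 4 TIMPs, 1 was called higher in HF12 than in C12, against 13.6% of all features, and 2 lower in HF24 than in C24, against 19.0%. Timp1, the widely secreted inhibitor, had 242033 and 257623 in HF12, against 246641 and 253457 in C12. Its values were 264383 and 272392 in HF24, against 242771 and 250741 in C24. It was not called in any of the 5 comparisons, although normexp with quantile normalization called C24 over C12. Timp2, which also takes part in Mmp2 activation, had 208898 and 205715 in HF12, against 248698 and 231010 in C12, and 119166 and 135563 in HF24, against 162912 and 152709 in C24. It fell with time by 0.60 on chow and by 0.71 on the high-fat diet on the log2 scale, and both calls held in every setting tried. Its diet call at 24 weeks (-0.31, SE 0.084) was lost without either HF12 array, either C24 array or HF24 replicate 1 (adjusted p 0.0643 to 0.161). Timp3, the inhibitor that binds to matrix and also blocks ADAM and ADAMTS proteases, had 55086 and 61486 in HF12, against 49281 and 49352 in C12. It had 67644 and 67440.1 in HF24, against 87718 and 85182 in C24. Its diet change turned sign: 0.24 at 12 weeks, a call lost without any 1 of the 7 arrays other than HF12 replicate 1 (adjusted p 0.07 to 0.173), and -0.36 at 24 weeks, a call lost without C24 replicate 1 or either HF24 array (adjusted p 0.0518 to 0.0572), with an interaction of -0.59 (SE 0.097, adjusted p = 0.00677). The second kept Timp3 probe was not called at 12 weeks (0.24, adjusted p = 0.11) and was called lower at 24 weeks (-0.53, adjusted p = 0.00846). Timp4, by the probe shown, was called only in C24 over C12 (-1.55, SE 0.39). Leaving out C12 replicate 1, C12 replicate 2 or C24 replicate 2 ended that call. Timp4 passed the filter only through the 12-week groups, so the fall is no independent result. Its other kept probe was also called lower in HF24 than in HF12 (-0.86, adjusted p = 0.0283). Of 4 other tested inhibitors, 1 was called higher and 1 lower in HF12 than in C12, against 13.6% and 17.4% of all features, and 2 were not called. Reck, a membrane-anchored inhibitor of several MMPs outside the 39 genes, was lower in all 4 comparisons, with 4106 and 4243 in HF12, against 7149 and 6659 in C12 (-0.73, SE 0.059), and 2493 and 2507 in HF24, against 3507 and 3558 in C24 (-0.50, SE 0.059).

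Most lysyl oxidases rose with time. In C24 over C12, 4 of 5 were called higher and 1 lower, against 23.9% and 22.2% of all features, and in HF24 over HF12, 4 of 5 were called higher and Lox was not called, against 22.5% higher. Loxl3 had 5397 and 5288 in HF24, against 2214 and 2050.3 in HF12, a log2 change of 1.33 (SE 0.069). On chow it had 4312 and 4678 in C24, against 2143 and 2195 in C12, a change of 1.05 (SE 0.069). Loxl2, also an enzyme of collagen IV crosslinking, had 56436 and 59979.8 in HF24, against 30708 and 30021 in HF12 (0.94, SE 0.086), and 50329 and 51189 in C24, against 24064 and 28086 in C12 (0.97, SE 0.086). Loxl4 followed with 0.79 and 0.60, and Loxl2 and Loxl4 were not called by diet at 24 weeks, although 1 of the 2 other Loxl4 probes was called lower in HF24 than in C24 (-0.33, adjusted p = 0.00916). Loxl3 was called higher in HF24 than in C24 (0.25, SE 0.069), a call lost without either C12 array, C24 replicate 1 or either HF24 array (adjusted p 0.0557 to 0.164). Lox, the founding member, had 127668 and 126428 in HF24, against 162596 and 160830 in C24, a log2 change of -0.35 (SE 0.073) that lost its call without any 1 of the 24-week arrays (adjusted p 0.054 to 0.0659). It rose with time on chow (0.59, SE 0.073) and was not called on the high-fat diet (0.12, SE 0.073). The other kept Lox probe was not called in HF24 over C24 (-0.36, adjusted p = 0.065). That probe was called higher in HF12 than in C12 (0.42, adjusted p = 0.0394), where the probe shown was not. Loxl1, which is needed for elastic fibres, was lower in C24 than in C12 (-0.44, SE 0.079), unlike the others, and its call higher in HF24 than in HF12 (0.29, SE 0.079) was lost without any 1 of those 4 arrays (adjusted p 0.0821 to 0.113) and with quantile normalization (adjusted p = 0.297). Its values were 42667 and 41388 in HF12, against 52677 and 57392 in C12, and 51222 and 51524 in HF24, against 38232 and 42939.8 in C24. Its diet change was -0.39 at 12 weeks and 0.34 at 24 weeks; its interaction of 0.73 (SE 0.11, adjusted p = 0.00548) held in every setting, but the call at 12 weeks was lost without C12 replicate 2 or either HF12 array and that at 24 weeks without C24 replicate 1 or either HF24 array (adjusted p 0.0597 to 0.0907). Pericyte and smooth muscle marker sums were 379019 to 389111 in HF24 and 239117 to 245551 in HF12, and 271744 to 287018 in C24 and 202498 to 225589 in C12; these and the endothelial sums above were higher at 24 weeks on both diets, and their part in the rise of the lysyl oxidases was not tested.

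**Figure D4:**
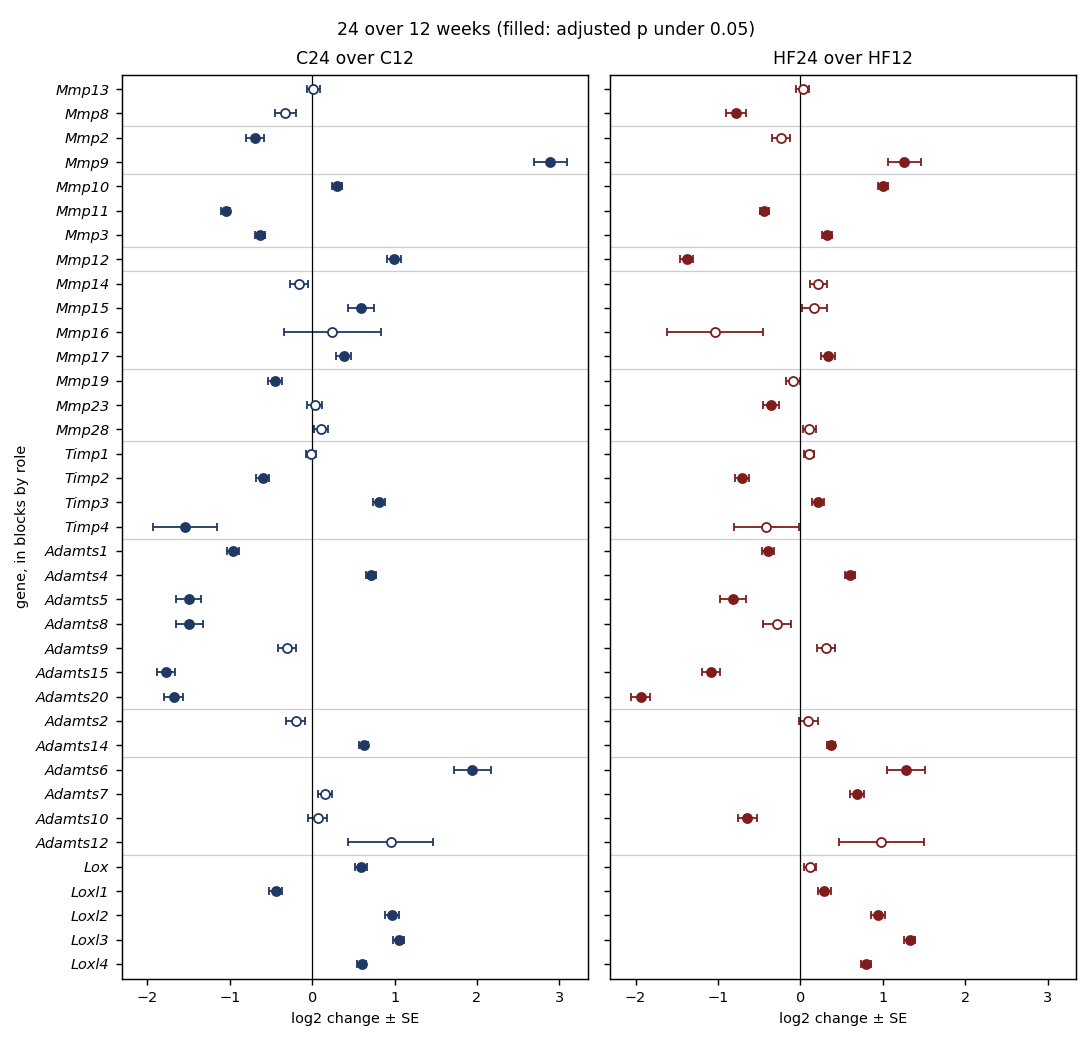
The log2 change ± SE with time is plotted for C24 over C12 (left) and HF24 over HF12 (right), for the 37 tested genes in blocks by role; filled points have an adjusted p under 0.05. The ADAMTS proteoglycanases other than Adamts4 lie to the left in C24 over C12, where Adamts9 was not called. Adamts20 among them passed the filter only through the 12-week groups. In that panel the lysyl oxidases other than Loxl1 lie to the right.

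The remaining metalloproteinases had few calls that held in every setting: Mmp2 and Mmp19, both on chow with time. Mmp2, gelatinase A, the stromal gelatinase, had 29845 and 27872 in HF12, against 37764 and 46392 in C12, a log2 change of -0.54 (SE 0.11) that lost its call without HF12 replicate 1 or HF12 replicate 2 (adjusted p up to 0.0777), and fell with time on chow by 0.70. Mmp14, the membrane enzyme that activates Mmp2, had 6274 and 5565 in HF12, against 7057 and 8274 in C12, where the call at 12 weeks (adjusted p = 0.0466) was lost without any 1 of the 7 arrays other than C12 replicate 1 (adjusted p 0.0563 to 0.195). Mmp19, also made by stromal cells, was lower with time on chow (-0.45, SE 0.084), but its second kept probe was not called there (-0.17, adjusted p = 0.168). Mmp23 was called lower in HF24 than in C24 (-0.36, SE 0.095), a call lost without either HF12 array or any 1 of the 24-week arrays (adjusted p up to 0.136). Mmp15 and Mmp17 rose on chow by 0.59 and 0.38, calls lost without either C12 array or C24 replicate 2 for Mmp15 (adjusted p up to 0.102) and without C12 replicate 1 or either C24 array for Mmp17 (adjusted p up to 0.0598). Mmp28 and Mmp16 were called in no comparison; Mmp16 had 13.7 and 15.7 in HF24, against 97.9 and 25.8 in C24, and 1 C24 array decided its mean.

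Other genes of matrix breakdown and assembly, from lists kept outside the 39, are given by their counts; the shares of all features to read them against are 13.6% higher and 17.4% lower in HF12 over C12, 15.1% higher and 19.0% lower in HF24 over C24, and 23.9% higher and 22.2% lower in C24 over C12. Of 8 cathepsins and their inhibitors, 5 were called higher and 1 lower in HF12 than in C12, and 3 higher in HF24 than in C24. Ctss, a macrophage cathepsin, had 253242 and 266210 in HF12, against 36166 and 33852 in C12, a log2 change of 2.89 (SE 0.067), and 184455 and 196790 in HF24, against 94577 and 92386 in C24. Ctsk, the collagen-cutting cathepsin of osteoclasts and fibroblasts, was lower in HF12 than in C12 by 0.78 on the log2 scale. Of 8 ADAM sheddases, 1 was called higher and 1 lower in HF12 than in C12; Adam8, an ADAM protease of myeloid cells, was 3.15 higher in HF12 than in C12, and 0.95 higher in HF24 than in C24. Of 7 plasminogen activation genes, 5 were called higher and 1 lower in C24 than in C12, among them Serpinb2 (1.82, SE 0.072), an inhibitor of plasminogen activators, and Plaur, the urokinase receptor (1.57, SE 0.070). Among 14 collagen processing and modification genes, 4 were higher and 4 lower in HF12 than in C12, with Tgm2, a transglutaminase that crosslinks matrix proteins, higher in all 4 comparisons. Of 15 substrates, 1 was called higher and 6 lower in HF12 than in C12; Eln, elastin, was lower in all 4 comparisons. The fibrillar collagen genes Col1a1 and Col3a1 and the fibronectin gene Fn1, chosen after their values were seen, were called in none of the 4. Among 8 other members of the protease families that could be tested, Adamts19 passed the filter only through C12, so a lower value elsewhere is no independent result; it was seen only in C12, with 217 and 202 in C12 and no array above background elsewhere, which makes it at least 11.7-fold lower in HF12 when the dim arrays are set to the lowest signal among probes well above background.

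Across the settings tried, 11 of the 21 calls in HF12 over C12 and 4 of the 14 in HF24 over C24 held in every one that tested the gene. The 11 were Mmp12, Mmp9, Mmp13, Mmp3, Mmp10, Mmp11, Adamts1, Adamts5, Adamts8, Adamts15 and Loxl4, and the 4 were Mmp12, Mmp13, Adamts1 and Adamts14. Mmp9 was not tested with the filter on all arrays, because only 1 C12 array was well above background. With time, 21 of 25 calls on chow and 18 of 23 on the high-fat diet held in every setting that tested the gene. Both counts include Mmp9 and Adamts20, which the filter on all arrays left out. Adamts20 passed the main filter only through the 12-week groups, so its lower value at 24 weeks is no independent result. For the interaction 8 of 15 calls held: Mmp12, Mmp3, Mmp10, Mmp11, Adamts1, Adamts8, Timp3 and Loxl1. Of 14 genes with several kept probes, 10 to 13 gave the same call on all of them in a comparison, and none gave opposite calls. Among the genes just named, the other 2 Loxl4 probes were not called in HF12 over C12 (log2 changes of -0.49 and -0.19, adjusted p of 0.0872 and 0.0594), and Adamts14 had a probe with another call in HF12 over C12 and for the interaction. The second Timp3 probe was not called in HF12 over C12 or in HF24 over HF12 (0.054, adjusted p = 0.668), and the second Adamts5 probe differed as given above. The second Adamts6 probe had a called interaction of -0.94 (adjusted p = 0.00458), where the probe shown was not called. In HF24 over C24 that second probe had a log2 change of -0.29 and the probe shown 0.32, and neither was called.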

How the data were processed

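RNA of the 8 samples was hybridised in 1 colour (Cy3) to Agilent 8x60K mouse arrays, all on 1 slide and in 1 scan, per the file headers. The deposited files hold the processed intensity of each spot, background-subtracted and detrended within the array by Agilent Feature Extraction 11.0.1.1, per the submitters' processing notes and file headers. The authors also deposited a table of log2 values for 38475 probes, used as an alternative; its column medians differ from log2 of the processed intensity by constants of -9.99 to -9.79, and the rule behind the constants is not given in the sources used here.

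Spots with an outlier flag were left out, spots of a probe were averaged, and log2 intensities were set relative to the 75th percentile of their array. A probe was kept when well above background on both arrays of at least 1 group, and the probe with the highest mean intensity stood for a gene. Accessions were matched to RefSeq symbols (GRCm38.p6; the headers name mm9), which named 58.3% of 56413 probes. A linear model with 1 mean for each group was fitted to the 8 arrays with limma 3.58.1 (R 4.3.3; 4 residual and 1.9 prior degrees of freedom). The two-sided p-values were adjusted by Benjamini-Hochberg over 29576 features, with a threshold of 0.05. The fit was tested on simulated data. On an array 57.6% to 67.2% of probes were well above background; this and the number of arrays limit the precision. Samples were not treated as paired by replicate number, because the labels do not say that they are. Replicate differences correlated by -0.082 to 0.17 between groups, and with 2 arrays per group this cannot settle whether samples were paired. The members and lists were chosen with earlier results of these data known. Genes outside the 39 were named when among the 4 called genes of smallest p in a list and comparison, except those said to be chosen later.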

Additional observations from a re-analysis of the deposited data

Results flagged for a closer look

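For 15 of the 37 tested genes, the diet change at 24 weeks differed from that at 12 weeks by the interaction term (limma, adjusted p under 0.05), against 29.9% of all features. The value is the log2 change of HF24 over C24 minus that of HF12 over C12. It was negative for Mmp12 (-2.37), Mmp9 (-1.63), Adamts10 (-0.71), Timp3 (-0.59), Lox (-0.47) and Adamts14 (-0.26). It was positive for Adamts8 (1.21), Mmp3 (0.95), Loxl1 (0.73), Mmp10 (0.70), Adamts15 (0.69), Adamts9 (0.62), Mmp11 (0.61), Adamts1 (0.57) and Adamts7 (0.53). The calls of Mmp9 and of the genes Adamts10, Lox, Adamts14, Adamts15, Adamts9 and Adamts7 were lost in at least 1 other setting. Groups of 2 arrays are too small to look for a single outlying array.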

How the results depend on the processing

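Counts of called genes were 21 in HF12 over C12, 14 in HF24 over C24, 25 in C24 over C12, 23 in HF24 over HF12 and 15 for the interaction. They stayed within 1.5 times under quantile normalization, normexp with quantile normalization, the deposited value table, all kept probes, a filter on all arrays, an intensity trend, only the groups compared, and a 75th percentile over spots, the last chosen after seeing the data. The exception was the fit with no filter on dim probes, which called 8 genes in HF24 over C24. More features were tested there, and fewer of them were called: 7572 of 45477, against 10075 of 29576 with the filter. Without a filter the median log2 change of all features lay 0.13 higher in C24 over C12 and 0.14 higher in HF24 over HF12 than with it. With 1 array left out the counts ran from 13 to 18 in HF12 over C12, the 13 without HF12 replicate 1 or HF12 replicate 2, and from 6 to 14 in HF24 over C24, the 6 without C24 replicate 1 or HF24 replicate 1 and 7 without HF24 replicate 2. They ran from 22 to 26 in C24 over C12, 19 to 24 in HF24 over HF12 and 10 to 14 for the interaction. With the replicate number as a block, 15, 10, 25, 22 and 14 genes were called, in the same order as above. Of all features, 8033, 8948, 12726, 12800 and 7640 were called with the block, in each case fewer than without it. This block uses replicate numbers that are not known to pair the samples. With any 1 array left out, fewer of all features were also called in every comparison than with all 8 arrays. The counts of the 37 genes in those fits are to be read against that. They do not show that the lost calls are particular to these genes. No call reversed under any setting, and the cause of the lost calls was not tested.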
